A study of Mus musculus with 29 samples.

Results

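The genes that encode the glial and neuronal intermediate filaments of the brain were followed through ribosome pulldown from astrocytes and from microglia. The 8 genes, chosen by name among the 36172 gene rows of the deposited table, were Gfap, Vim, Synm and Nes for the glial and progenitor filaments and Nefl, Nefm, Nefh and Ina for the neuronal ones. Each symbol was on a single row, and each passed the filter on low counts in every comparison. The study labelled ribosomes in one brain cell type of living mice and sequenced the RNA bound to them. Aldh1l1-NuTRAP mice (Aldh1l1-Cre/Ert2+; NuTRAP+) carried a tamoxifen-inducible Cre under the astrocyte promoter Aldh1l1, and Cx3cr1-NuTRAP mice (Cx3cr1-Cre/Ert2+; NuTRAP+) under the microglial promoter Cx3cr1, which is also active in other brain macrophages. All groups carried the NuTRAP allele, a floxed reporter that adds EGFP to the ribosomal protein L10a, and all mice received tamoxifen daily on 5 days at about 3 months of age. Males and females were used, with no sex per animal in the labels. A brain hemisphere was homogenized, and the cleared homogenate was the input. Ribosomes pulled down with an antibody against GFP gave the positive fraction, and what stayed unbound gave the negative fraction. The 29 libraries were the positive and negative fractions of Aldh1l1-NuTRAP mice 290, 293 and 294, the positive and negative fractions and the input of Cx3cr1-NuTRAP mice 155, 192, 194, 209, 210 and 277, and whole tissue of the latter mice except 155. For the Aldh1l1-NuTRAP line, neither input nor whole tissue was analysed here.

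Intermediate filaments are rope-like polymers that give a cell its resistance to stretch. Gfap, the glial fibrillary acidic protein, and Vim, vimentin, form the filaments of astrocytes, Synm, synemin, joins filaments built by a partner and ties them to other structures, and Nes, nestin, is a large partner known from neural progenitors and from the endothelium of vessels. In neurons the light, medium and heavy neurofilament chains Nefl, Nefm and Nefh assemble with alpha-internexin, Ina, and fill axons, where they set the calibre of the fibre. In mm10, the build of the deposited positions, Gfap lies at chr11:102887336-102897200 on the minus strand, Vim at chr2:13574311-13582826 on the plus strand, Synm at chr7:67730161-67759742 on the minus strand and Nes at chr3:87971093-87980451 on the plus strand. Nefl and Nefm are neighbours, at chr14:68083884-68087737 on the plus strand and chr14:68119545-68125004 on the minus strand, and Nefh and Ina lie at chr11:4938756-4948064 on the minus strand and chr19:47014698-47024346 on the plus strand. Genes of the other strand overlap Nefm (A230070E04Rik), Nefh (Ap1b1) and Ina (Nt5c2). The authors aligned the reads with strand.

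The 250 bases before the RefSeq start (GRCm38.p6, the assembly of mm10) of Gfap and Vim, the members that rose in the astrocyte pulldown, and of Ina, a neuronal member that fell in it, are shown. Capitals mark matches on either strand to an NFI motif (TTGGC), a STAT site (TTCNNNGAA), an AP-1 site (TGANTCA) or a TATA box (TATAAA), which do not overlap here.
Gfap, chr11:102897201-102897450, minus strand: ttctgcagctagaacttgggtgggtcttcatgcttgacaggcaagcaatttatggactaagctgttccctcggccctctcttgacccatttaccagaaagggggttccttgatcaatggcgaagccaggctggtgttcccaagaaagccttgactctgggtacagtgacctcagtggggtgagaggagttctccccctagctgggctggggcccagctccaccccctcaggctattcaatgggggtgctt
Vim, chr2:13574061-13574310, plus strand: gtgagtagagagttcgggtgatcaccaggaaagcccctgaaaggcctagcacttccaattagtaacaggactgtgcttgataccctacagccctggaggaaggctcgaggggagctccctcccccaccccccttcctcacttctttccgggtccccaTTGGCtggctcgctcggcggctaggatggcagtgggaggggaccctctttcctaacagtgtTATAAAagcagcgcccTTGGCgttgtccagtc
Ina, chr19:47014431-47014680, plus strand: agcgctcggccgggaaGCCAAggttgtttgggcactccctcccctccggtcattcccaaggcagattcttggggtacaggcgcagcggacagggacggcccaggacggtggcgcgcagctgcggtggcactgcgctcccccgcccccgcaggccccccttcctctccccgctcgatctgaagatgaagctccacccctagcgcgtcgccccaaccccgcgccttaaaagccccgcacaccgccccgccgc
An E-box (CAGCTG) and an SP1 site (GGGCGG) were searched too and left in lower case. The Gfap window held none of the 6 motifs, the Vim window held NFI motifs that begin 93 and 16 bases before the start and a TATA box 32 bases before it, and the Ina window held 1 NFI motif 234 bases before it, an E-box at 135 and SP1 sites at 111 and 12 bases. Among 32851 windows of the same length, 41.5% held the NFI motif, 7.02% the STAT site, 6.75% the AP-1 site, 12.4% the TATA box, 13% the E-box and 32.7% the SP1 site, so these matches are a description of the letters and not of binding. For Ina the RefSeq start, from which its distances are counted, lies slightly upstream of the start in the deposited table, so its window does not abut the position given above. The G and C content was 55.6% for Gfap, 58.4% for Vim and 70.8% for Ina. Of the 8 genes, 5 had a window in the RefSeq table, the other 2 being Synm and Nes.

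Total counts ranged from 8782235 to 25137834 in the Aldh1l1 libraries and from 15486605 to 26857866 in the Cx3cr1 libraries other than whole tissue of mouse 210, which had 4260949. Levels are given as CPM, the count as a share of the library total scaled to the same size in all libraries, and levels of different genes are compared only per kilobase of exon (RPKM). Log2 ratios of a gene between fractions of the same mouse come from log2 CPM that also corrects for the make-up of the libraries. This correction used the TMM method over all 29 libraries, with a prior count of 2, so the ratios differ from those of the CPM shown. The pulldowns were checked on marker genes. The 6 astrocyte markers summed to 5531 to 8605 CPM in the Aldh1l1 positive fraction and to 1059 to 1273 CPM in the negative fraction, and the 6 microglia markers to 1820 to 4216 CPM in the Cx3cr1 positive fraction and 226 to 257 CPM in the input. All 6 of each list were called higher. The Cx3cr1 positive fractions of mice 155, 192 and 194 stood apart in transcripts of very large linker proteins. Dst, a giant linker between filament systems, had 2505, 1331 and 2562 CPM in them against 216, 183 and 630 CPM in mice 209, 210 and 277, and 285 to 400 CPM (399.7 at most) in the 6 inputs. For some results that rest on these libraries, values without the 3 mice are given too, a choice made after seeing the data.

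The make-up of the filament transcripts differed between the astrocyte pulldown and every other group. Per kilobase, the 4 glial genes held 84.4% ± 2.20 (SD, n = 3) of the summed RPKM of the 8 genes in the Aldh1l1 positive fraction and 18.8% ± 2.19 (n = 3) in the negative fraction. In the Cx3cr1 line they held 17.1% ± 1.19 (n = 6) in the positive fraction, 18.2% ± 1.30 (n = 6) in the negative fraction, 18.4% ± 1.04 (n = 6) in the input and 15.4% ± 3.67 (n = 5) in whole tissue. All of these groups but the Aldh1l1 positive fraction overlapped each other. Gfap was the leading glial gene in each group, with a mean of 573 RPKM in the Aldh1l1 positive fraction against 107 RPKM for Vim, 2.70 RPKM for Synm and 1.38 RPKM for Nes. Among the neuronal genes Nefm was the leading one by mean, with 165 RPKM in the Cx3cr1 input against 140 RPKM (139.6) for Nefl, 67.7 RPKM for Ina and 65.2 RPKM for Nefh.

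**Figure D1:**
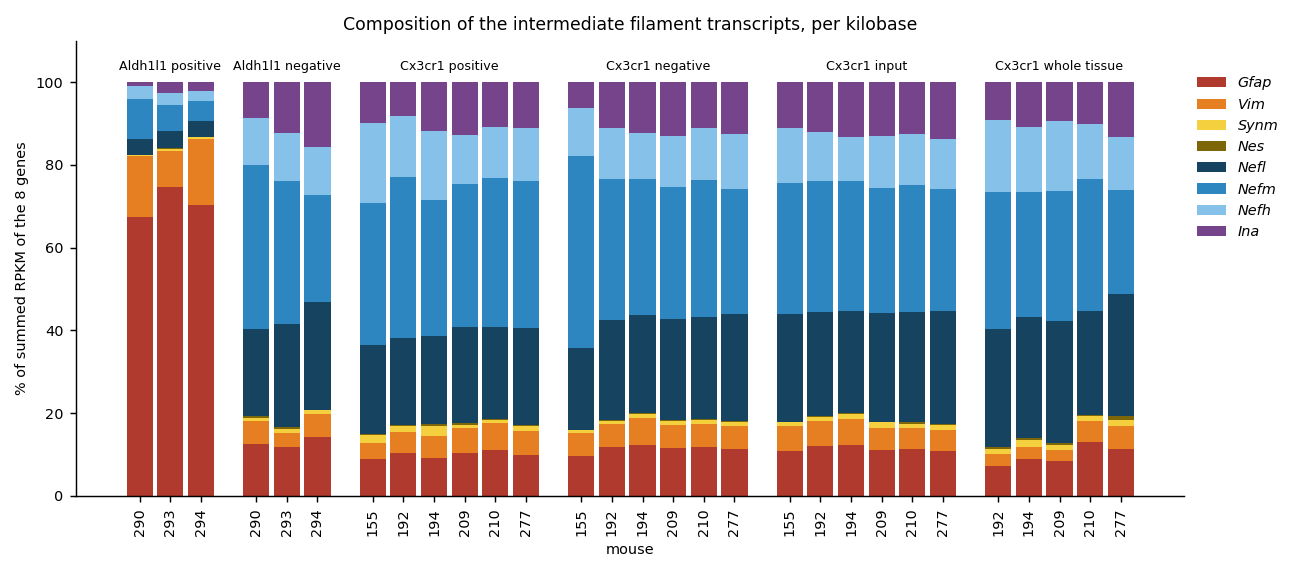
Share of each of the 8 genes in their summed RPKM (vertical axis, percent) in each of the 29 libraries, ordered by group and mouse. In the 3 Aldh1l1 positive fractions the glial genes held 82.4% to 86.8%, and in the other libraries the neuronal genes held most.

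In the astrocyte pulldown, Gfap and Vim rose and all 4 neuronal filament genes fell. Gfap was 12.3-fold and Vim 6.22-fold higher in the positive than in the negative fraction of the Aldh1l1 line, while Nefl, Nefm, Nefh and Ina were 2.78-, 2.19-, 1.85- and 2.77-fold lower. Synm and Nes, the partner genes of the glial group, did not pass the test. With 6 of 8 called (2 higher, 4 lower), the count stands beside 51.6% of all 13319 genes tested (26.8% higher, 24.8% lower).

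Gfap had 2209, 2444 and 2345 CPM in the positive fractions of mice 290, 293 and 294 and 270.1, 227 and 226 CPM in their negative fractions. The groups did not overlap, and the positive fractions lay close together (2332 ± 118, SD, n = 3). Its log2 fold change was 3.62 ± 0.16 (SE; edgeR adjusted p = 3.37e-05), higher than that of 99.6% of the genes tested. Vim had 257, 156 and 289 CPM in the positive fractions and 62.1, 35.6 and 45.6 CPM in the negative fractions. Mouse 293 was the lowest in both fractions of Vim and the highest in the positive fraction of Gfap, and the groups of Vim did not overlap. The log2 fold change of Vim was 2.64 ± 0.31 (edgeR adjusted p = 0.000484), and both genes were higher in 3 of 3 mice.

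Synm had 16.4, 26.98 and 20.2 CPM in the positive fractions and 33.3, 38.0 and 30.2 CPM in the negative fractions, so that on the CPM scale every positive fraction lay below every negative one. On the scale of the test, which also corrects for the make-up of the library by the TMM method, its log2 fold change was -0.32 ± 0.21 (edgeR adjusted p = 0.239), and -0.67 (adjusted p = 0.0338) with scaling by total counts alone. In a TMM normalization over all 29 libraries, apart from that of this test, the factors were 0.731 to 0.779 in the Aldh1l1 positive fractions and 0.969 to 1.08 elsewhere. Scaling by total counts moved the median log2 fold change of all genes from 0.04 to -0.31. It gave 2436 higher and 4824 lower genes in place of 3569 and 3299. Gfap and Vim stayed higher and the neuronal genes lower under it. Nes had 7.94, 9.14 and 8.35 CPM in the positive and 11.3, 8.74 and 3.90 CPM in the negative fractions, which overlapped. Its log2 fold change was 0.45 ± 0.38 (edgeR adjusted p = 0.349), positive in 2 of 3 mice, on counts of 82 to 220 per library (219.7 at most).

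**Figure D2:**
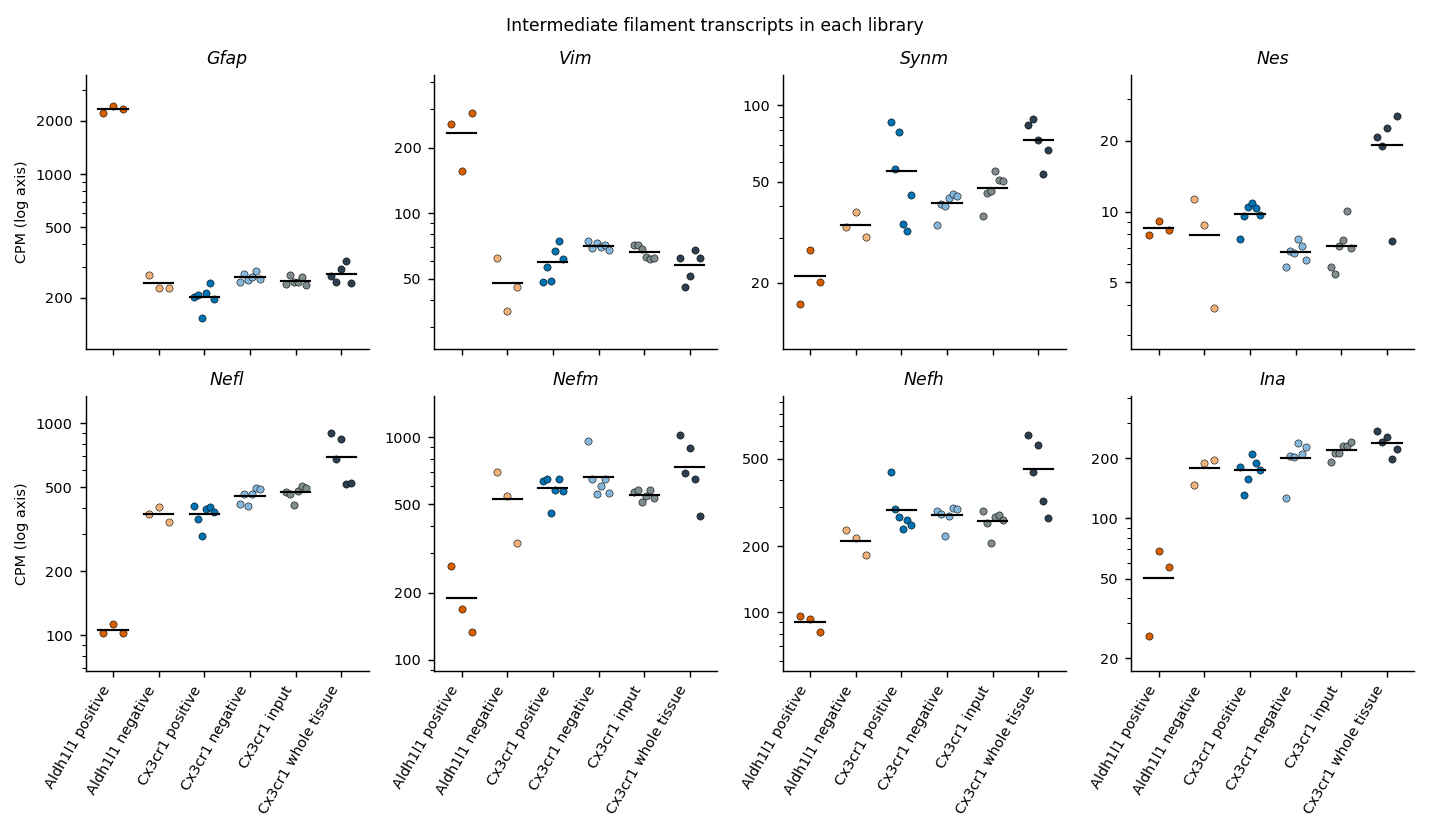
CPM of each gene (vertical, log axis) in every library, by group; points are mice in ascending order of their number and bars are group means. Gfap and Vim are highest, and Synm and the 4 neuronal genes lowest, in the Aldh1l1 positive fraction, each without overlap with the next group in order; Nes is highest in whole tissue apart from mouse 210.

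The neurofilament light chain gene Nefl had 102, 113 and 102 CPM in the positive and 375, 402 and 342 CPM in the negative fractions of mice 290, 293 and 294. Its log2 fold change was -1.47 ± 0.15 (edgeR adjusted p = 0.000225), with log2 ratios from -1.47 to -1.36 in the single mice on the TMM scale. The medium chain gene Nefm had 263, 168 and 134 CPM against 697, 546 and 333 CPM. Mouse 290 was the highest and mouse 294 the lowest in both of its fractions, and the log2 fold change was -1.13 ± 0.35 (edgeR adjusted p = 0.0301). The heavy chain gene Nefh, with 96.5, 92.9 and 81.4 CPM against 236, 217 and 181 CPM, fell by 0.88 ± 0.17 on the log2 scale (edgeR adjusted p = 0.00438). Ina had 26.0, 68.9 and 57.0 CPM against 147, 189.8 and 197 CPM, a log2 fold change of -1.47 ± 0.33 (edgeR adjusted p = 0.00841), and mouse 290 was the lowest in both fractions. None of the 4 genes overlapped between the fractions, as for 63% of all genes tested, and each was lower in 3 of 3 mice. Without mouse 293 Nefm and Nefh lost the call at log2 fold changes of -1.02 and -0.89 (adjusted p = 0.17 and 0.0676), and without mouse 294 Ina did at -1.49 (adjusted p = 0.0535), while the share of all genes called fell from 51.6% to 27.4% and 26.8%.

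Markers of many other cells moved in the same comparison. The 7 neuronal markers, which include Snap25 and Rbfox3, all fell, with a median log2 fold change of -1.59, and summed to 1513 to 2057 CPM in the positive and 6707 to 7867 CPM in the negative fraction. None was at 0. All 6 microglia markers, 4 of 5 oligodendrocyte markers, all 4 markers of oligodendrocyte precursors, 3 of 4 of fibroblasts and meninges (Dcn, Lum and Col1a1) and 2 of 4 tested of newborn neurons fell too, while the fibroblast marker Col1a2 rose. The 4 choroid plexus markers rose as well (median log2 fold change 2.49), from 467 to 615 CPM in the negative to 2817 to 3337 CPM in the positive fraction, as did 2 of 3 tested ependymal markers (Foxj1 and Rarres2) and 2 of 4 tested pericyte and smooth muscle markers (Pdgfrb and Myh11). The part of other cells in the values of the 8 genes was not tested. None of the 5 endothelial markers was called by edgeR, with a median log2 fold change of -0.12.

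Genes that work with the filaments were counted from lists, to be read beside 26.8% of all genes called higher and 24.8% called lower. Among chaperones and turnover factors, 4 of 6 tested rose. Hspb8 and Hspb6, small heat shock proteins, rose by a log2 fold change of 2.24 ± 0.18 (edgeR adjusted p = 0.00011) and 2.07 ± 0.31 (adjusted p = 0.0014), and Bag3, the co-chaperone that pairs with Hspb8, by 1.84 ± 0.17 (adjusted p = 0.000185). Cryab, alpha-B crystallin, was the other one, and Trim2, a ubiquitin ligase for the light neurofilament chain, fell (log2 fold change -0.93). The median of this list was 1.64, beside 0.04 over all genes. Transport motors went mostly the other way, with 5 of 8 lower and 1 higher. The neuronal kinesin heavy chains Kif5c (log2 fold change -1.80 ± 0.15, edgeR adjusted p = 0.000105) and Kif5a (-1.39 ± 0.29, adjusted p = 0.00543) and the dynein chain Dync1i1 (-1.28 ± 0.15, adjusted p = 0.000406) fell, whereas Myo5a, a myosin motor that binds neurofilaments, was higher. The 6 cross-linkers tested gave 0 calls in edgeR and had a median of 0.14; Dst, Plec and Evpl, the linkers with the most change, had log2 fold changes of 0.67, 0.49 and -0.29 (adjusted p = 0.0609, 0.162 and 0.487).

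Of 38 other intermediate filament genes, 15 were tested. The 12 that passed the filter on counts in both fractions gave 0 calls higher and 4 lower in edgeR (Iffo1, Krt9, Krt12 and Krt222), beside 26.8% and 24.8% of all genes. The other 3 passed only through the fraction where they were high, so their calls are not read as results. Among these, Krt18, the partner of Krt8 in simple epithelia, had a mean of 5.92 CPM in the positive and 1.60 CPM in the negative fraction, Krt8 had 2.64 and 0.910 CPM, and Krt77 was the one high in the negative fraction. Krt12, a corneal keratin, had 1.93 against 11.0 CPM (-2.21 ± 0.56, adjusted p = 0.0131), and Krt9, a keratin of palm and sole skin, 3.04 against 14.9 CPM (-1.97 ± 0.54, adjusted p = 0.0177).

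In the microglia pulldown the 8 genes stayed within a log2 fold change of -0.33 to 0.46 of the input. Compared with the input, the Cx3cr1 positive fraction had Nes 1.38-fold higher and Gfap, Nefl and Ina 1.22-, 1.25- and 1.25-fold lower, with 4 of 8 called beside 48.9% of the 13838 genes tested (23.3% higher, 25.6% lower). Compared with the negative fraction, 3 of 8 were called beside 24.3% of 13776 genes (12.8% higher, 11.6% lower), namely Nes higher and Gfap and Nefl lower. The comparisons share the positive fractions.

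Gfap had 153, 204 and 243 CPM (lowest, median, highest of 6) in the positive fraction, 236, 245 and 267 CPM in the input and 245, 259 and 281 CPM in the negative fraction. The positive fraction overlapped the input only through mouse 210, and it lay below the input of the same mouse in 6 of 6 mice (log2 fold change -0.28 ± 0.08, edgeR adjusted p = 0.013). Against the negative fraction the log2 fold change was -0.35 ± 0.09 (adjusted p = 0.0107) with no overlap. Over the same libraries 5 of 6 astrocyte markers fell against the input, from 1601 to 1821 CPM down to 800.5 to 1166 CPM in sum. Nefl had 295, 389 and 408 CPM in the positive fraction and 410.2, 478 and 508 CPM in the input (log2 fold change -0.33 ± 0.08, edgeR adjusted p = 0.00528), without overlap and lower in 6 of 6 mice. Ina had 130.3, 178 and 210.3 CPM in the positive fraction and 192, 221 and 239.6 CPM in the input, which overlapped (-0.32 ± 0.10, adjusted p = 0.0147, lower in 5 of 6 mice). Of the 7 neuronal markers 1, Syt1, was called lower, and their median log2 fold change was -0.01.

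Nes had 7.65, 10.0 and 10.9 CPM in the positive fraction, 5.42, 7.05 and 10.0 CPM in the input and 5.81, 6.73 and 7.62 CPM in the negative fraction. It was higher than in the input in 6 of 6 mice (log2 fold change 0.46 ± 0.15, edgeR adjusted p = 0.018) and higher than in the negative fraction in 6 of 6 (0.57 ± 0.11, adjusted p = 0.0019), the latter without overlap. The endothelial markers Cldn5, a tight junction claudin, and Pecam1 were also higher than in the input, with log2 fold changes of 0.61 and 0.78 (adjusted p = 0.0277 and 0.000119), and the other 3 of the 5 were not called. The sum of the 5 endothelial markers was 61.6, 79.7 and 84.0 CPM in the positive fractions of mice 155, 192 and 194 and 134, 140.4 and 128 CPM in those of mice 209, 210 and 277, against 71.4 to 86.0 CPM in the input. Cldn5 was below the input in mouse 155 alone, with log2 ratios of -0.40, 0.41 and 0.19 in the first 3 mice and 0.79, 1.15 and 1.05 in the other 3. Pecam1 showed no such split, with log2 ratios of 0.69, 0.44 and 1.01 and of 0.67, 0.73 and 1.202. Flt1 had 13.7, 14.4 and 15.7 CPM in the positive fractions of the first 3 mice and 29.5, 30.0 and 26.3 CPM in the other 3. Tek and Cdh5 were also lower in the positive fractions of the first 3 mice than in the others. Without these 3 mice Nes was at 0.36 (edgeR adjusted p = 0.0508) against the input and at 0.60 (adjusted p = 0.00394) against the negative fraction. The part of the endothelial markers in the Nes value was not tested. Vim had 48.5, 59.1 and 74.5 CPM in the positive fraction, and the input had 61.3, 65.7 and 71.8 CPM, so the groups overlapped (log2 fold change -0.14 ± 0.10, adjusted p = 0.227).

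Of these calls, Nefl against the input and Nes against the negative fraction held in 14 of 14 alternatives (highest adjusted p = 0.0371 and 0.0382), and the others depended on single mice or settings. Without mouse 192 the counts fell to 2 against the input and 1 against the negative fraction, as Gfap and Ina (input; adjusted p = 0.0753 and 0.0579) and Gfap and Nefl (negative fraction; 0.0621 and 0.174) lost the call. Over all genes the share called without mouse 192 fell too, to 39.1% and 12.6%. Without mouse 277 the input count was 2 as well, as Nes and Ina lost the call (0.0536 and 0.0606), beside 39.1% of all genes. Ina lost the call against the input without mouse 194 too (0.0569), and Nefl against the negative fraction without mouse 209, 210 or 277 (0.0721, 0.0899 and 0.116) and with the mouse as a block (0.0546), without the filter on counts (0.0559) or with all 6 groups in one fit (0.1). That last fit also took the calls of Nes and Ina against the input (0.0635 and 0.102).

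Synm and Nefh split the microglia pulldown by mouse. Synm had 86.2, 56.3 and 78.3 CPM in the positive fractions of mice 155, 192 and 194 and 34.2, 31.9 and 44.5 CPM in those of mice 209, 210 and 277. In the input the first 3 mice had 36.7, 45.2 and 45.9 CPM and the other 3 had 54.99, 50.7 and 50.4 CPM. The log2 ratio of positive fraction to input was thus positive in the first 3 mice (1.34, 0.38 and 0.85) and negative in the other 3 (-0.71, -0.67 and -0.19). Nefh had 432, 294 and 272 CPM against 239, 264 and 249 CPM in the same order, with log2 ratios of 0.68, 0.27 and 0.48 and of -0.21, -0.08 and -0.09. The linker Plec, which ties filaments to junctions, had log2 ratios of 3.14, 1.90 and 2.73 and of -0.98, -1.11 and 0.25, and Dst and Myo5a divided the mice in the same way. The log2 ratios of Nes to the input were in the same order, at 0.49, 0.88 and 0.62 and at 0.49, 0.05 and 0.46, but its levels in the positive fractions were not, at 7.65, 9.62 and 10.4 CPM and at 10.9, 10.4 and 9.68 CPM. Its levels in the inputs were 5.83, 5.42 and 7.12 CPM and 7.59, 10.0 and 6.98 CPM, and the ratios to the negative fraction, at 0.42, 0.56 and 0.74 and at 0.52, 0.58 and 0.66, did not show it. Vim had the opposite order, at -0.46, -0.28 and -0.40 and at 0.06, 0.27 and -0.02.

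**Figure D3:**
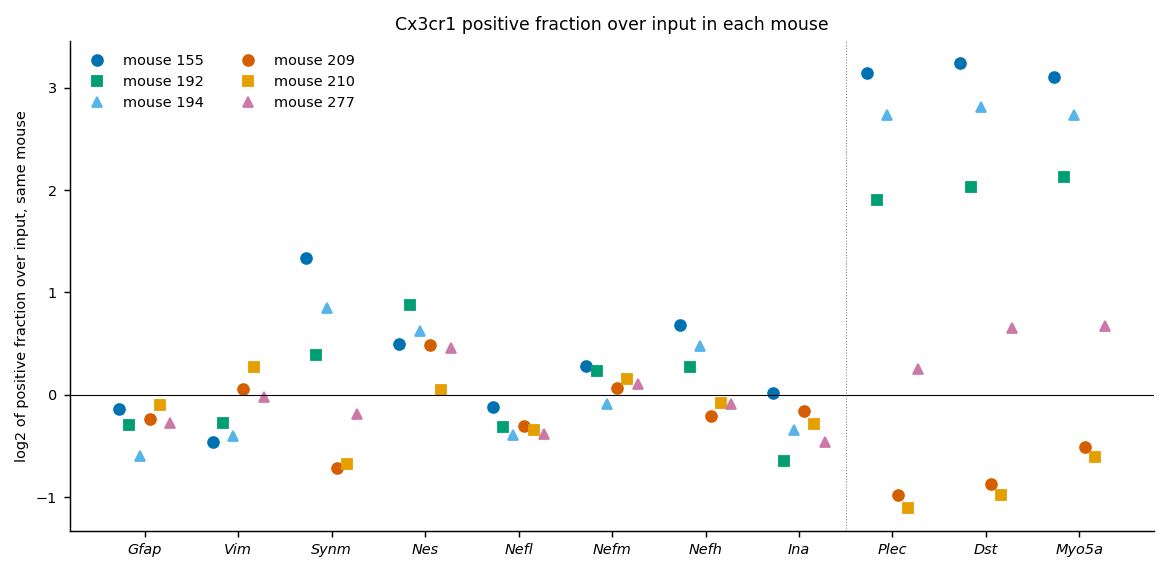
Log2 ratio of the Cx3cr1 positive fraction to the input of the same mouse (vertical) for the 8 filament genes and, right of the dotted line, Plec, Dst and Myo5a; each symbol is a mouse. Mice 155, 192 and 194 lie above mice 209, 210 and 277 for Synm, Nefh, Nes, Plec, Dst and Myo5a, for Nes only just (0.494 against 0.490), and below them for Vim; Nefl, Gfap and Ina show no such order.

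Over all 6 mice neither gene was called against the input, with log2 fold changes of 0.25 ± 0.24 for Synm (edgeR adjusted p = 0.412) and 0.18 ± 0.14 for Nefh (adjusted p = 0.283). Without mice 155, 192 and 194, Synm was at -0.48 ± 0.11 (adjusted p = 0.00178) and Nefh at -0.09 ± 0.05 (adjusted p = 0.18). The mice left out are those with positive log2 ratios of both genes, so the values of this subset are no separate test. Against the negative fraction without these mice Synm was at -0.23 (adjusted p = 0.104) and Nefh at -0.17 (adjusted p = 0.0341), and 5 of 8 genes were called in place of 3, beside 35.8% of all genes in place of 24.3%. Against the input 4 of 8 were called in that subset, beside 59% of all genes. In the same subset Gfap and Nes were at -0.16 and 0.36 against the input (adjusted p = 0.0618 and 0.0508), Nefm was called higher, at 0.15 (adjusted p = 0.0244), and Vim was at 0.15 (adjusted p = 0.0704) where it had been negative. Over all mice the medium chain gene Nefm was at 0.11 ± 0.08 against the input (adjusted p = 0.272), with 454, 609 and 646 CPM in the positive fraction and 512, 554 and 578 CPM in the input, which overlapped. Of the 7 cross-linkers tested against the input, Plec, Dst, Dsp and Tchp were called higher, with a median log2 fold change of 1.25 that rests on the same mice: the summed level of all 8 listed cross-linkers, Macf1 among them (log2 fold change 1.25, adjusted p = 0.0659), was 2923 to 5550.4 CPM in mice 155, 192 and 194 and 460.0 to 1346 CPM in the other 3.

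In the Cx3cr1 line the negative fraction and the input gave no call. None of the 8 genes was called between negative fraction and input, beside 6.11% of 13748 genes (1.41% higher, 4.7% lower). DESeq2 gave 0 calls too, beside 15% of all genes. In edgeR 2 of the 8 had an unadjusted p under 0.05, beside 4376 of the 13748 genes. The 2 were Synm, at a log2 fold change of -0.20 ± 0.09 (edgeR adjusted p = 0.147) and lower in 6 of 6 mice, and Nefm, at 0.28 ± 0.12 (adjusted p = 0.128) and higher in 6 of 6. Mouse 155 set the Nefm value, since its negative fraction had 964 CPM against 555 to 649 CPM in the other 5, and its Ina level of 126 CPM lay below the others (203 to 238 CPM). Without mouse 155 Nefm was at 0.14 and Synm at -0.21, and both were called (adjusted p = 0.0361 and 0.0102), beside 27.6% of all genes. With the mouse as a block Synm and Nefh were called instead, at -0.19 (adjusted p = 0.00772) and 0.10 (adjusted p = 0.0305), beside 37.2% of all genes. The share of 6.11% was not stable, since no gene was called without mouse 192, 209, 210 or 277 (3868, 3302, 2753 and 3528 genes at an unadjusted p under 0.05) and 3 genes were called without mouse 194.

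The cleared input was also compared with whole tissue of the same line. Between input and whole tissue of the Cx3cr1 line, Nes, Synm, Nefl and Nefh were 2.77-, 1.56-, 1.47- and 1.73-fold lower in the input, while Gfap, Vim, Nefm and Ina did not pass the test. The count of 4 of 8, all lower, stands beside 30.5% of 13608 genes called (16.3% higher, 14.2% lower). Vim was the one with a positive log2 fold change (0.20 ± 0.09, edgeR adjusted p = 0.11), and without mouse 210 it was called higher in the input (0.27, adjusted p = 0.0293).

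Nes had 20.7, 19.1, 22.7, 7.51 and 25.5 CPM in whole tissue of mice 192, 194, 209, 210 and 277, and 5.42 to 10.0 CPM in the 6 inputs. Whole tissue of mouse 210 lay among the inputs and the other 4 lay well above them. The log2 fold change was -1.47 ± 0.22 (edgeR adjusted p = 0.000334), lower than that of all but 0.272% of the genes tested, and without mouse 210 it was -1.74 (adjusted p = 6.31e-07). All 5 endothelial markers were lower in the input too, by a median of -1.32, and summed to 223, 197, 213, 111 and 207 CPM in whole tissue against 71.4 to 86.0 CPM in the inputs. Mouse 210 was again the one near the inputs. The 4 pericyte and smooth muscle markers tested fell as well (median -1.07), as did the 3 ependymal markers tested (-0.93), whereas 3 of 4 tested markers of newborn neurons and progenitors (Dcx, Neurod1 and Eomes) were higher in the input (median 1.23). These newborn neuron and progenitor markers summed to 177 to 195 CPM in the inputs and to 62.9 to 81.7 CPM in whole tissue, except in mouse 210 with 173 CPM. Their part in the Nes value was not tested.

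**Figure D4:**
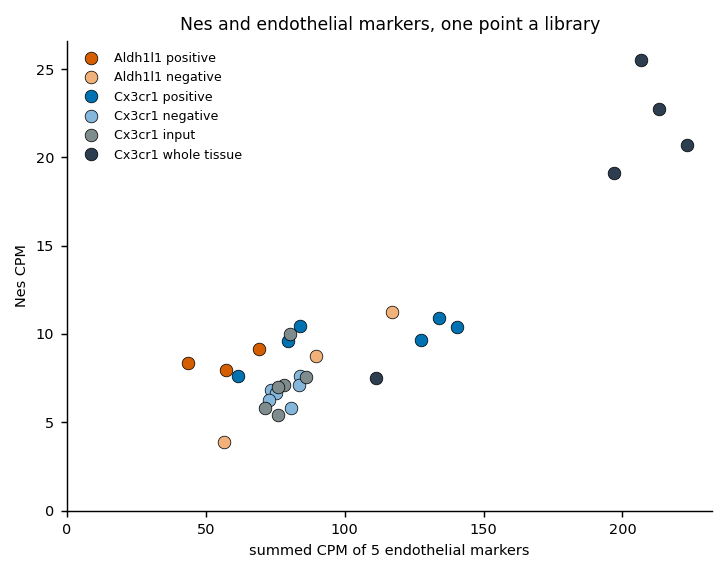
Nes CPM (vertical) against the summed CPM of 5 endothelial markers (horizontal), one point a library, coloured by group. Whole tissue of 4 mice lies at 19.1 to 25.5 CPM of Nes and 197 to 223 CPM of the markers, and whole tissue of mouse 210 at 7.51 and 111 CPM among the other groups.

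On the CPM scale the SD of the axonal chains Nefl, Nefm and Nefh was larger in whole tissue than in any other group, and so were their means. For Nefm the SD was 224 at a mean of 737 CPM in whole tissue. It was 183 at 525 CPM in the Aldh1l1 negative and 67.0 at 188 CPM in the Aldh1l1 positive fraction, more in proportion to the mean. Nefl had 896, 679, 842, 516 and 523 CPM in mice 192, 194, 209, 210 and 277, all above the inputs, which went up to 508 CPM (log2 fold change -0.56 ± 0.13, edgeR adjusted p = 0.00688). Nefh had 641, 434, 575, 321 and 268 CPM, overlapping the inputs at 207 to 289.7 CPM through mouse 277 (-0.79 ± 0.20, adjusted p = 0.0116), and it lost the call without mouse 209 (adjusted p = 0.0559). Nefm had 1019, 689.9, 889.7, 646 and 441 CPM (-0.43 ± 0.16, adjusted p = 0.0645), was called without mouse 277 (adjusted p = 0.00573) and by DESeq2 (adjusted p = 0.0171). Mice 192 and 209 had the highest level of each of the 3 chains, and Ina, at 272, 241.0, 256, 198 and 223 CPM, varied less and was at -0.13 ± 0.08 (adjusted p = 0.264). Synm, at 83.5, 88.2, 72.9, 53.5 and 66.5 CPM against 36.7 to 54.99 CPM in the inputs, fell by 0.64 ± 0.12 on the log2 scale in the input (adjusted p = 0.00157), with overlap only through mouse 210. The neuronal markers did not follow the chains, since 4 of 7 (Syt1, Rbfox3, Slc17a7 and Gad1) were higher in the input and Tubb3 was lower. Oligodendrocyte markers were lower in the input in 4 of 5 cases, astrocyte markers in 3 of 6, markers of oligodendrocyte precursors in 1 of 4 and microglia markers in 0 of 6. Transport motors were lower in 4 of 8 cases. The part of other cells in these values was not tested.

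**Figure D5:**
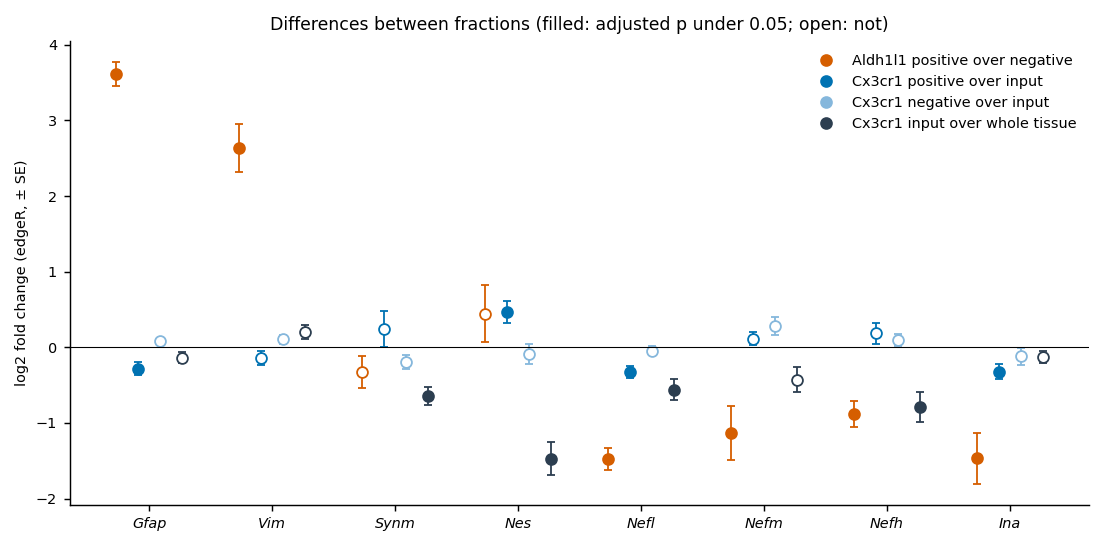
Log2 fold change with its SE (vertical, edgeR) of the 8 genes in 4 comparisons; filled points have an adjusted p under 0.05. The Aldh1l1 positive over negative fraction spans 3.62 for Gfap to -1.47 for Nefl, while the Cx3cr1 positive over input comparison stays between -0.33 and 0.46.

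The positive fractions of both lines were compared with each other. Gfap and Vim were 14.3- and 4.89-fold higher in the Aldh1l1 than in the Cx3cr1 positive fraction, and Nefl, Nefm, Nefh and Ina 2.84-, 2.51-, 2.61- and 2.77-fold lower. With Synm, 7 of 8 were called, beside 63.7% of 13676 genes (30.6% higher, 33.1% lower). Line and mice cannot be told apart in this comparison, since each mouse belongs to 1 line. The paper reports a delayed tissue collection after tamoxifen for the Cx3cr1 line, so the time since tamoxifen may differ with the line too. In bulk RNA of different mice fewer cells of a type and less RNA per cell cannot be told apart. Synm was 2.11-fold lower in the Aldh1l1 positive fraction (log2 fold change -1.08 ± 0.35, edgeR adjusted p = 0.0199), but at -0.42 (adjusted p = 0.111) without mice 155, 192 and 194, and it also lost the call without mouse 290 or 294 (adjusted p = 0.0912 and 0.0649). Nes did not pass the test (0.11 ± 0.15, adjusted p = 0.559), and with scaling by total counts its log2 fold change was -0.21.

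Enrichment of the positive over the negative fraction differed between the lines for 6 of 8 genes, 2 higher and 4 lower, beside 55.4% of 13983 genes (25.5% higher, 29.9% lower). The difference in log2 fold change, Aldh1l1 minus Cx3cr1, was 3.92 ± 0.16 for Gfap (edgeR adjusted p = 2.84e-12), 2.83 ± 0.26 for Vim, -1.25 ± 0.14 for Nefl, -1.03 ± 0.33 for Nefm, -1.04 ± 0.24 for Nefh and -1.33 ± 0.32 for Ina. For Synm it was -0.83 ± 0.38 (adjusted p = 0.0708) and for Nes -0.16 ± 0.31 (adjusted p = 0.677). The Synm difference was called with scaling by total counts (-1.09, adjusted p = 0.0148) and without mouse 209 or 210 (adjusted p = 0.0447 and 0.035), and it was -0.08 (adjusted p = 0.812) without mice 155, 192 and 194. Nefm lost the call without mouse 293 (adjusted p = 0.0663), while Nefh, at -1.31 to -0.70 over 17 alternatives, kept it.

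The negative fractions of the lines were compared in the same way. None of the 8 genes was called by edgeR between them, beside 0.25% of 13613 genes. In the same fit 4 of the 8 had an unadjusted p under 0.05, beside 1827 of all genes. Vim was among these 4, at a log2 fold change of -0.54 ± 0.15 in the Aldh1l1 line (edgeR adjusted p = 0.172). It was called by DESeq2 (adjusted p = 0.0375) and without mouse 290 (-0.80, adjusted p = 0.0229), beside 3.8% and 0.951% of all genes. The other 3 were Synm, Nefl and Nefh, at -0.25, -0.25 and -0.35. Vim and Nefl (2 of 8) did not overlap between these fractions, beside 7.75% of all genes tested.

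Ratios of filament genes within a library do not depend on the scaling of libraries. The Nefh to Nefl ratio, per kilobase, was 0.694 (median of 3) in the Aldh1l1 positive and 0.457 in the negative fraction, with a mean log2 difference of 0.59 ± 0.0077 (SD, positive in 3 of 3 mice). An exact sign-flip permutation test over 3 mice cannot go below p = 0.25, the value it gave. In the Cx3cr1 line the ratio was 0.625 (median of 6; range 0.511 to 0.897) in the positive fraction and 0.464 (range 0.428 to 0.515) in the input, with a mean log2 difference of 0.49 ± 0.31, positive in 6 of 6 mice (exact sign-flip permutation test, two-sided, p = 0.0312, the smallest that 6 mice allow; adjusted over the 4 ratio tests, 0.125). Without mice 155, 192 and 194 the difference was 0.22. The Vim to Gfap ratio was 0.216 (median of 3; range 0.118 to 0.229) in the Aldh1l1 positive and 0.374 (range 0.291 to 0.427) in the negative fraction, with a log2 difference of -0.996 ± 0.30, negative in 3 of 3 mice (exact permutation p = 0.25). In the Cx3cr1 line the positive fraction had a median of 0.577 and the input of 0.493, a log2 difference of 0.14 ± 0.26 (5 of 6 mice, exact permutation p = 0.281). Mouse 155 was the one with a negative difference, and without it the mean was 0.23, while without mice 155, 192 and 194 it was 0.31.

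The profile of each gene over the 6 groups was set beside those of 14109 genes, as the root-mean-square difference of mean log2 CPM after centring. Within the 8 genes the nearest pair was Nefl and Ina (0.15 on the log2 scale), Gfap and Vim differed by 0.54, and Synm was nearer to Nefh (0.20) than to any glial member (0.47 or more). The genes nearest to Gfap were Id3 (0.08), Sdc4 and Dbx2, those nearest to Vim Ptx3 (0.07), Gstt1 and Sod3, and those nearest to Synm Slc52a3 (0.08), Plch1 and Pear1. Nes had Nos3, the endothelial nitric oxide synthase, as its nearest gene (0.09), followed by Mmrn2 and Foxq1. Nefl was nearest to Qpct (0.04), Kctd9 and Gpr64, Nefm to Efna1 (0.07), Scg2 and Fank1, Nefh to Fam131c (0.06), Layn and Ankrd55, and Ina to Frmd5 (0.04), Cntnap1 and Mtmr7. These likenesses rest on 6 group means and carry no test. Without mice 155, 192 and 194 the distances within the 8 genes were similar (Nefl and Ina 0.13, Gfap and Vim 0.54, Synm and Nefh 0.23, Synm and Nes 0.48), but only 5 of the 24 nearest genes stayed on the lists, Sdc4 for Gfap, Gstt1 for Vim, Nos3 for Nes, Kctd9 for Nefl and Mtmr7 for Ina, and none did for Synm, Nefm or Nefh.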

How the data were processed

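RNA-seq libraries of positive and negative fractions, input and whole tissue were analysed (29 libraries, 6 groups, from the titles). The authors trimmed the reads, used Strand NGS for directional alignment to mm10, and counted over RefSeq genes. The deposited raw columns are expected counts, since 82.4% of values above 0 were not whole (tolerance 1e-6), and were rounded to whole numbers. The deposited log2 columns, normalized by the authors with DESeq, were not used. A gene was tested if all libraries of 1 or more of the compared groups exceeded 20 counts. Tests were run over the groups compared with edgeR 4.0.16 (R 4.3.3; TMM, robust quasi-likelihood test, two-sided, Benjamini-Hochberg over all genes tested, threshold 0.05). DESeq2 1.42.0 was an alternative. Levels were CPM of the library total, also divided by exon length from GENCODE M21 transcripts with a RefSeq link. Counts were from 4260949 to 26857866 per library. An SD covers the spread between mice only. The SE of a log2 fold change was computed from its size and the F statistic of the edgeR test. That statistic also holds count noise and a dispersion shared in part across genes. No libraries held identical values. Libraries are paired by mouse through the animal number in the labels, and the tests had no block. Deviations from the group mean correlated above 0.1 within 3 of 3 mice for Aldh1l1 positive and negative fractions, 3 of 6 for Cx3cr1 positive fraction and input, 3 of 6 for positive and negative fraction, 5 of 6 for negative fraction and input and 0 of 5 for input and whole tissue. The 8 genes were always named, and up to 3 genes of a list by size of change. The members and lists were chosen with earlier results of these data known. Scripts were tested on simulated data (Python 3.11.15, pandas 2.3.3, numpy 2.4.6, scipy 1.17.1).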

Additional observations from a re-analysis of the deposited data

Results flagged for a closer look

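In 7 of 32 sets of one gene in one group of 4 to 10 libraries, a single library lay far from the rest by Dixon's test, which chance does in about 1 in 20 sets. Nes was low in the Cx3cr1 positive fraction of mouse 155 (7.65 CPM; next 9.62) and in whole tissue of mouse 210 (7.51 CPM; next 19.1). Nefm was low in the positive fraction of mouse 194 (454 CPM; next 574) and high in the negative fraction of mouse 155 (964 CPM; next 649). Nefh was high in the positive fraction of mouse 155 (432 CPM; next 294) and low in the negative fraction of mouse 194 (223 CPM; next 275). Ina was low in the negative fraction of mouse 155 (126 CPM; next 203).

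The positive over negative fraction differed between the lines by the test of the difference in edgeR, Aldh1l1 minus Cx3cr1 on the log2 scale, for Gfap (3.92), Vim (2.83), Nefl (-1.25), Nefm (-1.03), Nefh (-1.04) and Ina (-1.33).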

How the results depend on the processing

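Of the single-gene values under the alternatives, 840 kept direction and side of the threshold, 25 lost the call, 18 gained it and 12 changed sign. Without mice 155, 192 and 194, against the input Vim was at 0.15, Synm at -0.48 and Nefh at -0.086, and against the negative fraction Synm was at -0.23, Nefm at 0.026 and Nefh at -0.17, each with its sign changed. The count against the negative fraction was 5, beside 35.8% of all genes. Leaving out 1 mouse gave Synm -0.00044 (without 155) to 0.40 (without 209) against the input and Nefh -0.028 (without 155) to 0.17 (without 277) against the negative fraction. Nes changed sign between negative fraction and input (-0.16 without mouse 192 to 0.020 without 210), between positive fractions with total-count scaling (-0.21), between negative fractions (-0.068 without mouse 290 to 0.61 without 294) and in the difference between lines (0.19 without mouse 290). None of these Nes values was called. With all 6 groups in one fit, 2 genes were called between Cx3cr1 positive fraction and input, beside 44.2% of all genes. Leaving out a mouse at a time gave counts of 2 to 4 there (39.1% to 49.7% of all genes) and 1 to 4 against the negative fraction (12.6% to 30.7%). It gave 0 to 2 between negative fraction and input (0% to 27.6%) and 0 to 1 between negative fractions (0% to 0.951%). DESeq2 gave 1 between negative fractions, beside 3.8% of all genes. With the mouse as a replicate block 2 genes were called between negative fraction and input, beside 37.2% of all genes. In that setting Nefl lost its call between positive and negative fraction (adjusted p = 0.0546), and no other call of the 8 genes changed. Without the replicate block the Nefh to Nefl difference of 0.49 in the Cx3cr1 line was past the threshold (permutation p = 0.00433; adjusted 0.0173). The cause of these changes was not tested. With total-count scaling the calls between positive fractions went from 4188 higher and 4530 lower to 2875 and 6312, and in the difference between lines from 3572 and 4179 to 2600 and 5719. Nes, with 32 counts in the shallowest library, had the least depth.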
